A study of Saccharomyces cerevisiae with 15 samples.

Results

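The alcohol dehydrogenase family of Saccharomyces cerevisiae was followed at the messenger RNA level in cells that had 1 of 5 amino acids as their nitrogen source. The family was taken as 8 named genes, ADH1 (YOL086C), ADH2 (YMR303C), ADH3 (YMR083W), ADH4 (YGL256W), ADH5 (YBR145W), ADH6 (YMR318C), ADH7 (YCR105W) and SFA1 (YDL168W). Probe sets were kept where the platform annotation names a member and no other gene, and a gene with several was represented by the one of highest mean signal. That gave 9 probe sets for the 8 genes, out of 9275 probe sets without controls. ADH4 had 2 of them, and all 9 carry the plain suffix of probe sets designed for 1 transcript. ADH1 and ADH2 are close paralogs with annotated lengths of 1047 bases each, and how far their probe sets bind each other's transcript was not tested.

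The cells were CEN.PK113-7D, a prototrophic haploid laboratory strain of mating type a, with the same genotype in all 15 samples. They grew in aerobic chemostats at 30 °C, pH 5.0 and a dilution rate of 0.10 per hour, with glucose (7.5 g/l in the feed) limiting growth. The sole nitrogen source was methionine at 11.3 g/l, leucine at 10.0 g/l, proline at 8.8 g/l, or asparagine or phenylalanine at 5.0 g/l, with potassium sulfate (6.6 g/l) in each medium and 3 arrays per source. The labels state triplicates but not how cultures relate to arrays. The p-values rest on how far arrays of the same source differ, pooled over the 5 sources, a spread that may be technical. A pair of sources is therefore not judged by the spread of its own arrays alone.

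Alcohol dehydrogenases interconvert aldehydes or ketones and alcohols with NADH or NADPH. In yeast, Adh1 reduces acetaldehyde to ethanol at the end of fermentation, whereas Adh2 works mainly in the oxidation of ethanol and is a classic gene repressed by glucose and switched on by the activator Adr1. The same family takes part in the last step of the Ehrlich pathway, in which leucine, phenylalanine or methionine is transaminated, its keto acid decarboxylated by enzymes such as Aro10, and the resulting aldehyde reduced to a fusel alcohol or oxidised to a fusel acid.

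The values are linear MAS5 signal intensities with trimmed means of 150.1 to 150.2 on every array. Median signals lay between 38.2 and 55.1. The ratio of actin signal at the 3' end to that at the 5' end, a measure that rises as RNA breaks down, lay between 1.59 and 3.64. The same ratio for SPT15 ordered the sources differently. With phenylalanine it was lowest (2.99 ± 1.10, against 4.45 ± 0.26 with asparagine), where the actin ratio was highest (2.81 ± 0.70). Only the actin ratio was used as a covariate. The hybridisation controls, which are spiked into every sample, ranged from 115 to 808. The third phenylalanine array had the lowest median and the highest hybridisation control signal, and the settings file of the first phenylalanine array describes it as a re-run after the scanner was serviced. The number of arrays limits the precision. Differences were tested with limma on log2 signals over all 15 arrays, with Benjamini-Hochberg adjustment over 7459 probe sets and a threshold of 0.05. Every adjusted p below is from this model, except where an alternative setting is named or a call is said to be lost. A change or call is a difference past that threshold, and fold changes are on the log2 scale with low signals floored at 2.0. Signals of different probe sets are not compared as levels, since each binds with its own strength.

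Of the 8 genes, 7 were tested, each above the 25th percentile of its array on all 15 arrays, and ADH7 was too dim to test. All 7 differed among the 5 sources by the moderated F test, where 52.2% of all tested probe sets did. The range between the highest and the lowest source was 12.8-fold for ADH2 (adjusted p = 2.2e-08) and 6.82-fold for ADH5 (adjusted p = 3.7e-09). It was 2.59-fold for SFA1 (8.8e-05), 2.06-fold for ADH6 (0.0071), 1.93-fold for ADH3 (0.00027), 1.67-fold for ADH4 (0.046) and 1.42-fold for ADH1 (0.017). Over the 10 pairs of sources, 33 of 70 member comparisons were called (47.1%), against 21.5% of such comparisons over all probe sets. The 10 pairs rest on 5 group means, so the 70 comparisons are not separate results. The background also holds dimmer probe sets than the members. With the filter at the 50th percentile the F test called 3159 of 5168 probe sets, against 3897 of 7459 here. ADH5 had 9 calls, ADH2 and SFA1 6 each, ADH3 5, ADH6 3, and ADH1 and ADH4 2 each. The plot of signals shows the members' different orders of sources.

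**Figure D1:**
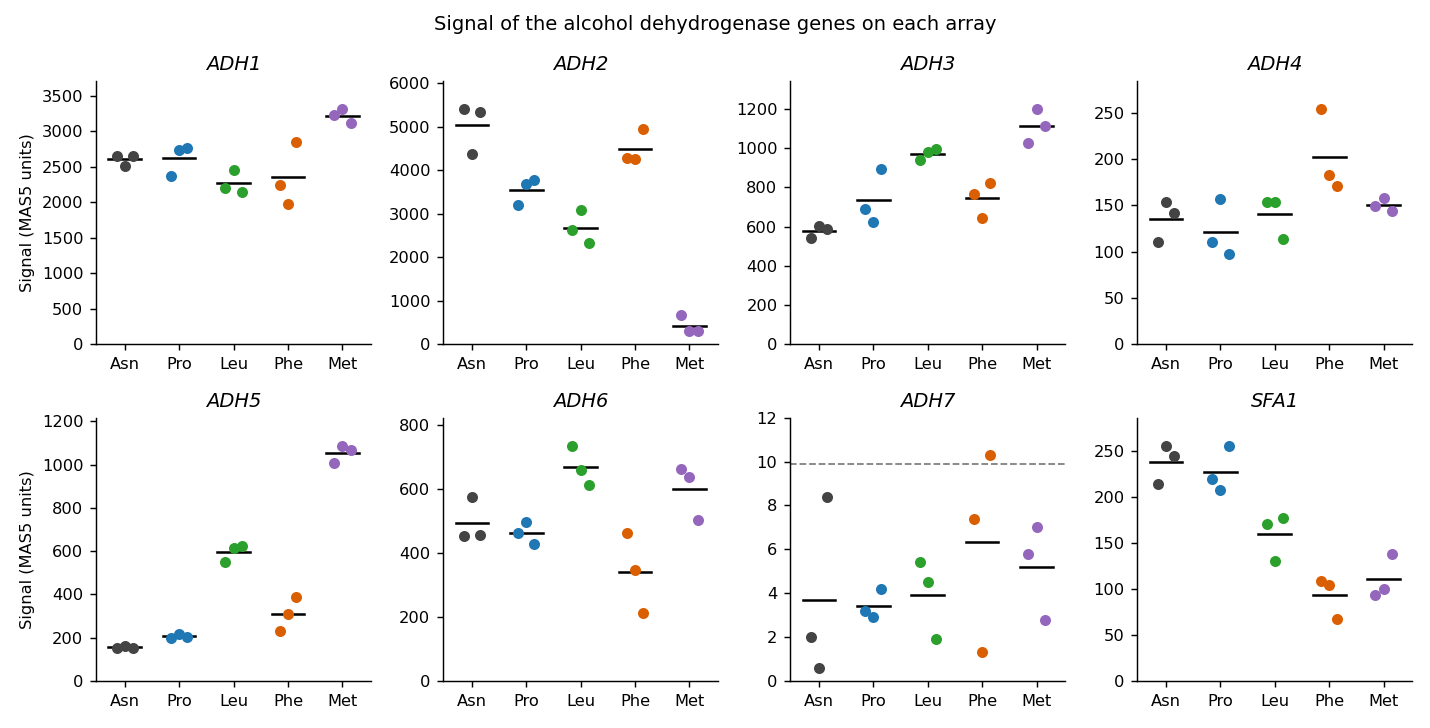
Signal (MAS5 units, linear axes from 0) of the 8 genes on each array, with points for the 3 arrays of each nitrogen source and a black bar for their mean. ADH2 was lowest and ADH5 highest on all 3 methionine arrays, and ADH7 lay mostly under the dashed line, the 25th percentile of all signals (9.9).

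Proline and asparagine gave no called difference in any of the 7 tested members, where 13.3% of all probe sets were called (4.6% higher and 8.7% lower with proline). With leucine 2 members were higher than with asparagine (ADH3 and ADH5) and 2 lower (ADH2 and SFA1), against a background of 20.9% (9.88% higher, 11% lower). With phenylalanine ADH4 and ADH5 were higher and ADH6 and SFA1 lower, against 25.6% (7.56% higher, 18.1% lower). With methionine ADH3 and ADH5 were higher and ADH2 and SFA1 lower, against 38.6% (14.4% higher, 24.2% lower). These 4 comparisons share the asparagine arrays. The plot of differences from asparagine shows ADH5 above 0 and SFA1 below it with each of leucine, phenylalanine and methionine.

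**Figure D2:**
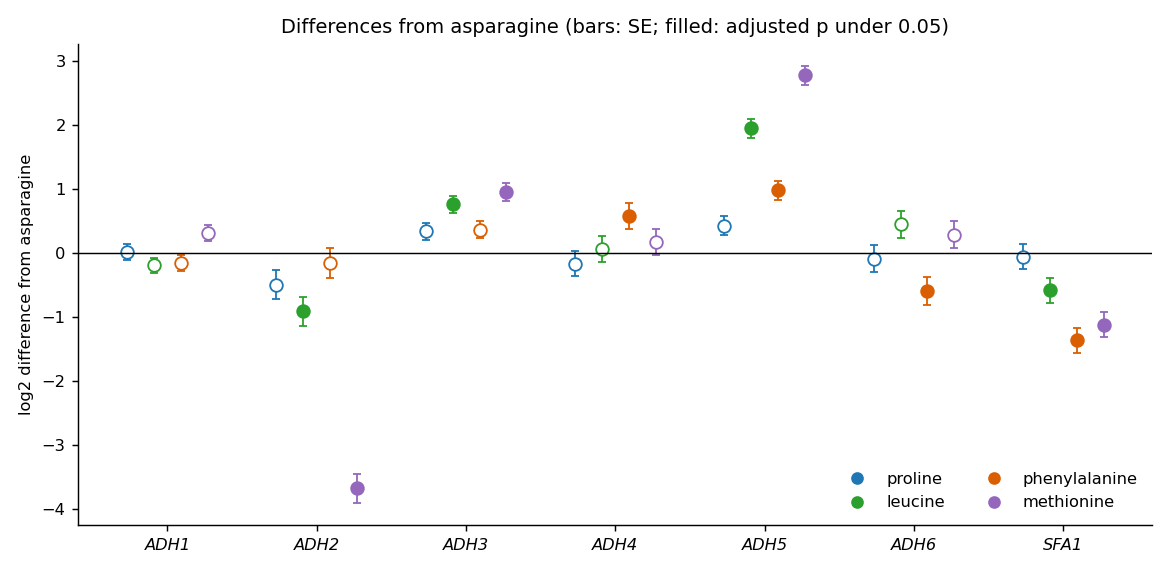
Difference in log2 signal from asparagine (y axis) for the 7 tested members, coloured by the other 4 sources. Bars are standard errors of the fit, and filled points have an adjusted p under 0.05. ADH2 with methionine (-3.68) and ADH5 with methionine (2.77) lie farthest from 0.

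ADH2, the ethanol-oxidising enzyme, was nearly as high with phenylalanine as with asparagine and far lower with methionine. Its signals were 5400.3, 4372.6 and 5334.9 with asparagine and 3206.1, 3675.7 and 3774 with proline. They were 2619, 3080.5 and 2315.9 with leucine and 4288.4, 4248.1 and 4937.8 with phenylalanine. With methionine they were 663.4, 305.2 and 294. In these whole-culture samples a lower signal can mean fewer cells that make the transcript or less of it per cell, which cannot be told apart. Every methionine array lay below every other array, and the first of them was above the other two. The asparagine and phenylalanine arrays overlapped, while the proline and leucine arrays lay below both and did not overlap each other.

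Against asparagine, ADH2 was 12.8-fold lower with methionine (from 5036 ± 575 to 421 ± 210.1, SD, n = 3), a log2 difference of -3.68 ± 0.23 (SE, adjusted p = 9.1e-09). It was also lower with methionine than with proline (9.07-fold, adjusted p = 6.5e-08), leucine (6.80-fold, 7.4e-07) and phenylalanine (11.5-fold, 5.6e-08). With leucine ADH2 was 1.89-fold lower than with asparagine (adjusted p = 0.0090), a call lost (adjusted p = 0.071) without the 5 arrays whose ribosomal RNA control signal was highest (proline 2 and 3, leucine 3, phenylalanine 3 and methionine 2, called high-rRNA arrays from here on). Proline missed the threshold against asparagine (log2 difference -0.50, 95% interval -0.99 to -0.01, adjusted p = 0.17). Phenylalanine was 1.69-fold above leucine (adjusted p = 0.043), but that call was lost in 17 of 27 alternatives. Of these, 8 left out 1 array (asparagine 3, any proline array, leucine 1 or 3, phenylalanine 1 or 3, adjusted p = 0.052 to 0.15). With quantile normalization the log2 difference fell from 0.76 to 0.31 (adjusted p = 0.39). The actin ratio was 1.76 ± 0.103 with methionine and 2.77 ± 0.797 with asparagine, and the hybridisation control signal 173 ± 15.6 and 351 ± 58.2. With each as a covariate the methionine difference of ADH2 was -3.54 and -3.52.

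ADH1, the main fermentative enzyme, varied little. Its signals were 2646.5, 2506.3 and 2653.4 with asparagine, 2364.6, 2739.9 and 2757.6 with proline, and 2205.9, 2454 and 2143.6 with leucine. They were 2247.1, 1971.4 and 2843.8 with phenylalanine and 3231, 3308.2 and 3116.3 with methionine. The methionine arrays stood above all others, and the other 4 groups lay close together, with the leucine arrays just below those of asparagine. ADH1 was 1.42-fold higher with methionine than with leucine (adjusted p = 0.010) and 1.38-fold higher than with phenylalanine (0.013). Against asparagine the difference of 1.24-fold missed the threshold (log2 difference 0.31, 95% interval 0.05 to 0.56, adjusted p = 0.056). In the comparisons of methionine with leucine and with phenylalanine, ADH1 and ADH2 therefore moved in opposite directions. The call against phenylalanine was lost with median centring (adjusted p = 0.15), with the actin ratio as covariate (0.051) and without methionine 2 (0.050), and the F test without methionine 1 (0.055) or 2 (0.065) and with median centring (0.054). The call against leucine was lost without the high-rRNA arrays (0.055).

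ADH3 encodes the mitochondrial isozyme, which takes part in a shuttle of ethanol and acetaldehyde across the inner membrane. Its signals were 541.7, 602.7 and 587.3 with asparagine, 687.7, 625.8 and 895.9 with proline, and 766.7, 641.9 and 823.7 with phenylalanine. They reached 939.1, 982.2 and 998.9 with leucine and 1029, 1199.5 and 1111.6 with methionine. The asparagine arrays were the lowest of all and did not overlap any other group. The methionine arrays were the highest, and the leucine arrays came next with no overlap.

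ADH3 was 1.93-fold higher with methionine than with asparagine (from 577 ± 31.7 to 1113 ± 85.3, adjusted p = 6.5e-05) and 1.69-fold higher with leucine (to 973 ± 30.9, adjusted p = 0.00066). Methionine also exceeded proline (1.53-fold, adjusted p = 0.0036) and phenylalanine (1.50-fold, 0.0065). In order, methionine, leucine, phenylalanine, proline and asparagine, no neighbouring pair differed past the threshold (adjusted p = 0.34, 0.064, 0.91 and 0.11). Leucine exceeded proline by 1.34-fold (adjusted p = 0.038), a call lost in 11 of 27 alternatives, among them leaving out proline 1 or 2, any leucine array or methionine 3 (adjusted p = 0.052 to 0.17). The calls against phenylalanine and proline were lost with median centring (0.051) and without the high-rRNA arrays (0.058), in that order.

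ADH5 encodes a minor cytosolic isozyme that can form ethanol. It separated the sources most finely of the 7 members, with 9 of its 10 pairs called. Its signals were 151.5, 160.4 and 151.9 with asparagine and 198.1, 217 and 204 with proline. They were 230.1, 311.4 and 388.5 with phenylalanine, 548.7, 615.2 and 625.8 with leucine, and 1009.2, 1086.4 and 1067.4 with methionine. The 5 groups did not overlap, and the phenylalanine arrays were spread most widely.

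Against asparagine (155 ± 5.03), ADH5 was 6.82-fold higher with methionine (1054 ± 40.2, log2 difference 2.77 ± 0.15, adjusted p = 1.6e-09). It was 3.85-fold higher with leucine (597 ± 41.8, adjusted p = 1.2e-07) and 1.96-fold higher with phenylalanine (310.0 ± 79.2, 0.00026). With proline (206 ± 9.67) the difference was 1.33-fold and missed the threshold (log2 difference 0.42, 95% interval 0.10 to 0.73, adjusted p = 0.078). Each step of the order methionine, leucine, phenylalanine and proline was called (adjusted p = 0.0017, 0.00048 and 0.015). The smallest of these steps, phenylalanine over proline (1.47-fold), was lost without proline 1 (0.057) or phenylalanine 3 (0.059), with the actin ratio (0.14) or the hybridisation control (0.25) as covariate, and without the high-rRNA arrays (0.31). The difference of methionine from asparagine was 2.93 with the actin ratio and 2.87 with the hybridisation control as covariate.

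SFA1 encodes a bifunctional enzyme that oxidises the glutathione adduct of formaldehyde and also acts on longer alcohols and aldehydes. Unlike ADH5, it was highest with asparagine and proline. Its signals were 213.3, 255 and 243.8 with asparagine, 218.9, 207.5 and 254.4 with proline, and 169.8, 129.9 and 177.1 with leucine. They were 108.5, 104.3 and 67.5 with phenylalanine and 93.6, 99.6 and 137.2 with methionine. All arrays of leucine, phenylalanine and methionine lay below all of asparagine and proline, whereas phenylalanine and methionine overlapped.

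SFA1 was 2.59-fold lower with phenylalanine (93.4 ± 22.6) than with asparagine (237 ± 21.6), a log2 difference of -1.37 ± 0.20 (adjusted p = 0.00014). It was 2.18-fold lower with methionine (110.1 ± 23.6, adjusted p = 0.00040) and 1.50-fold lower with leucine (159 ± 25.4, 0.044). Phenylalanine and methionine were also below proline, by 2.47-fold (adjusted p = 0.00020) and 2.08-fold (0.0010), while leucine missed the threshold against proline (0.075). Without the high-rRNA arrays both calls against proline were lost (0.053 and 0.061). The leucine call was lost in 12 of 27 alternatives, among them leaving out any asparagine or leucine array, proline 1 or 2, or methionine 2 (adjusted p = 0.051 to 0.16). Phenylalanine lay 1.72-fold below leucine (adjusted p = 0.016), a call lost in 7 alternatives, including without leucine 1 or 3 or phenylalanine 3 (0.064 to 0.075). Asparagine and proline differed by a log2 value of -0.07 (95% interval -0.48 to 0.35).

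ADH6 encodes an NADPH-dependent enzyme that reduces a broad range of aldehydes, including aromatic and longer-chain ones. Its signals were 454.4, 573.7 and 455.2 with asparagine, 462.7, 496.1 and 426.9 with proline, and 734.8, 659.3 and 613.9 with leucine. They were 462.9, 345.7 and 213.5 with phenylalanine and 664.1, 638.6 and 501.9 with methionine. Leucine arrays lay above those of asparagine, proline and phenylalanine, and the phenylalanine arrays were spread from the lowest value of all to the level of asparagine. ADH6 was 2.06-fold lower with phenylalanine than with leucine (adjusted p = 0.0046) and 1.84-fold lower than with methionine (0.0092).

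The hybridisation control signal was 450 ± 319 with phenylalanine, 226 ± 106 with leucine and 173 ± 15.6 with methionine, and its part in the phenylalanine results of ADH4 and ADH6 was not tested beyond the covariate fits. Both of these ADH6 calls and the ADH6 F test were lost without the 5 high-rRNA arrays, which leaves 1 proline array. The log2 difference of phenylalanine from leucine was then -0.80, against -1.04 with all arrays. The call against methionine was also lost with the actin ratio (adjusted p = 0.20) or the hybridisation control (0.13) as covariate. Against asparagine the phenylalanine difference of 1.51-fold stood at an adjusted p of 0.04997 and was lost in 20 of 27 alternatives, 14 of them leaving out 1 array (every array except phenylalanine 1, adjusted p = 0.053 to 0.22). Over all tested probe sets the median difference between these sources on the log2 scale was -0.16 as deposited, 0.01 with quantile normalization and 0.15 with median centring, and ADH6 stood at -0.60, -0.58 and -0.29 in the same order.

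ADH4 encodes an enzyme of a different structural family from Adh1, made mainly when zinc is scarce. Its signals were 110.4, 154.1 and 141.3 with asparagine, 110.7, 156.8 and 97 with proline, and 153.2, 153.5 and 113.9 with leucine. They were 253.8, 182.3 and 170.5 with phenylalanine and 148.9, 158.2 and 143.5 with methionine. The phenylalanine arrays lay above all others, and the other 4 groups overlapped. ADH4 was 1.67-fold higher with phenylalanine than with proline (adjusted p = 0.016) and 1.49-fold higher than with asparagine (0.048).

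All 3 ADH4 calls depended on single arrays, and all 3 were lost with the hybridisation control as covariate. With that covariate the adjusted p was 0.11 for the F test, 0.052 against asparagine and 0.13 against proline. The F test was lost in 16 of 27 alternatives, 11 of them leaving out 1 array (asparagine 1 or 3, proline 1 or 3, leucine 1 or 2, phenylalanine 1 or 2, any methionine array, adjusted p = 0.050 to 0.18). The call against asparagine was lost in 14, 9 of them leaving out 1 array (asparagine 1 or 3, proline 1, leucine 1 or 2, phenylalanine 1, any methionine array, 0.053 to 0.19). The call against proline was lost in 6, among them without proline 1 or 3 or phenylalanine 1 (0.062 to 0.070). The unused ADH4 probe set ranged from 0.3 to 11.8 and passed the 25th percentile on 1 array. There too the phenylalanine arrays (7.5, 8.2 and 11.8) were the highest, at signals close to background. With no filter on dim probe sets the F test of this probe set gave an adjusted p of 0.0045. Several of its signals lay under the floor of 2.0, among them all of leucine (0.9, 0.3 and 0.3).

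ADH7, a close relative of ADH6 with similar substrates, had signals from 0.6 to 10.3 (median 4.2) and passed the 25th percentile of its array on 1 array, phenylalanine 3. Its 3 signals were 2, 0.6 and 8.4 with asparagine and 7.4, 1.3 and 10.3 with phenylalanine, so the arrays of each overlapped widely. With no filter on dim probe sets its F test gave an adjusted p of 0.82. No level or fold is given for it.

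The other 6 pairs of sources were read the same way. Leucine exceeded proline in ADH3 and ADH5 and was lower in none, where 19.3% of all probe sets were called (11.1% higher, 8.27% lower). Phenylalanine exceeded proline in ADH4 and ADH5 and was lower in SFA1 (background 20.7%, with 8.14% higher and 12.6% lower). Methionine exceeded proline in ADH3 and ADH5 and was lower in ADH2 and SFA1 (22.6%, with 10.6% higher and 11.9% lower).

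Phenylalanine exceeded leucine in ADH2 and was lower in ADH5, ADH6 and SFA1 (background 12.8%, with 4.32% higher and 8.51% lower). Methionine exceeded leucine in ADH1 and ADH5 and was lower in ADH2 (18.8%, with 6.97% higher and 11.8% lower). It exceeded phenylalanine in ADH1, ADH3, ADH5 and ADH6 and was lower in ADH2 (22.3%, with 12.8% higher and 9.48% lower). The map of all pairs shows these calls by member.

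**Figure D3:**
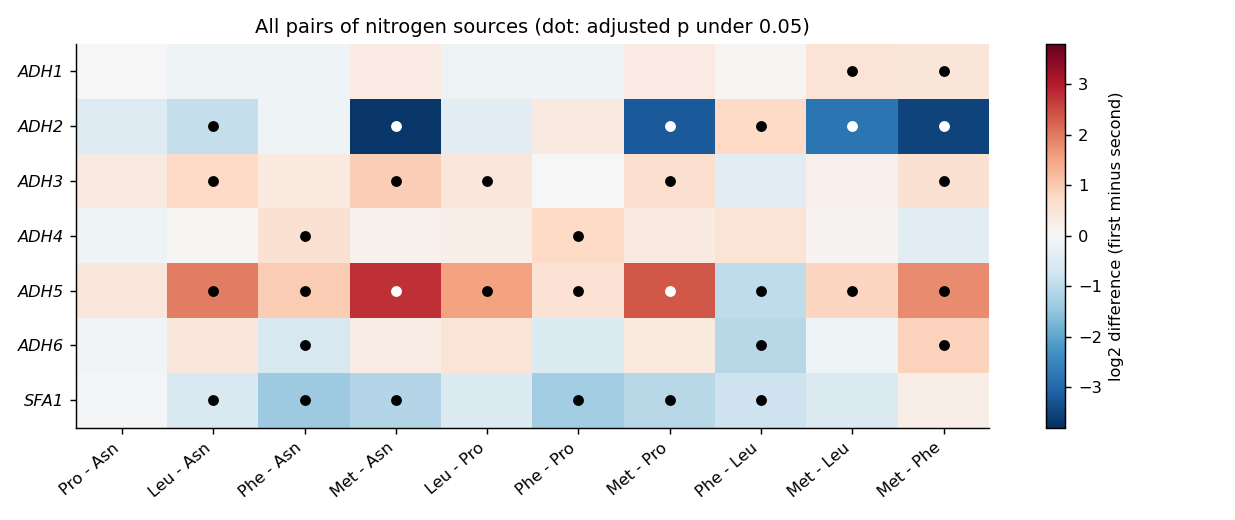
Differences in log2 signal of the 7 tested members (rows) for each of the 10 pairs of nitrogen sources (columns, the source named first minus the other, as coloured in the bar). Dots mark the 33 of 70 comparisons with an adjusted p under 0.05: ADH5 has 9, the pair of proline and asparagine none.

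The 3 amino acids of the Ehrlich pathway, leucine, phenylalanine and methionine, were also set together against asparagine and proline. Here 2 members were higher and 2 lower, where 32.2% of all tested probe sets were called, 14.1% higher and 18.1% lower. ADH5 was higher by 3.22-fold (log2 difference 1.69 ± 0.10, adjusted p = 1.9e-09) and ADH3 by 1.43-fold (0.00024). ADH2 was 2.53-fold lower (log2 difference -1.34 ± 0.15, adjusted p = 4.4e-06) and SFA1 1.99-fold lower (-0.995 ± 0.13, 1.8e-05). The ADH2 value averages a methionine group far below the rest with a phenylalanine group near asparagine. ADH1 (log2 difference -0.02, 95% interval -0.19 to 0.14), ADH6 (0.09, -0.20 to 0.38) and ADH4 (0.35, 0.07 to 0.62, adjusted p = 0.051) missed the threshold. The 4 calls held in all 27 alternatives.

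Members were also compared with each other by Pearson correlation of log2 signal over the 15 arrays, given as a description. ADH3 and ADH5 varied together (r = 0.91), and both ran against ADH2 (r = -0.77 and -0.84). ADH5 and SFA1 stood at -0.62 and ADH1 and ADH2 at -0.63. ADH4 had no correlation above 0.13 with another member and stood at -0.61 with SFA1. The 15 arrays fall into 5 groups, so these values mainly carry the differences between sources.

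Among 5381 other genes, the patterns most like that of ADH2 were those of MET32 (r = 0.98), SPS19 (0.98) and SAM2 (0.97). MET32 encodes a zinc finger regulator of sulfur amino acid genes, SPS19 a peroxisomal dienoyl-CoA reductase of fatty acid breakdown and SAM2 an S-adenosylmethionine synthetase. With methionine MET32 fell from 220 ± 8.58 with asparagine to 8.00 ± 1.35, under the 25th percentile of signal, SPS19 from 1240 ± 28.4 to 433 ± 66.0 and SAM2 from 856 ± 68.2 to 374 ± 31.7. The nearest patterns to ADH5 were those of the hexose transporter HXT4 (r = 0.97), ILT1 (0.95) and the mitochondrial ferredoxin YAH1 (0.94). HXT4 rose from 53.6 ± 6.31 with asparagine to 321 ± 38.5 with methionine and 195 ± 85.0 with leucine.

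ADH3 was most like NAR1 (r = 0.93), which acts in cytosolic iron-sulfur protein assembly, YHI9 (0.91) and HOM2 (0.91), an enzyme of threonine and methionine synthesis. SFA1 was most like the steryl ester hydrolase YEH1 (0.96), the sterol regulator ECM22 (0.95) and the proteasome subunit RPT4 (0.93). The highest values for the other members were lower. ADH6 reached 0.90 with ABZ1, 0.89 with NOP2 and 0.88 with TLG2, ADH1 0.86 with APE1, 0.82 with YDJ1 and 0.78 with the tRNA gene YNCL0044W, and ADH4 0.82 with RIP1, 0.80 with SPS18 and 0.78 with SLX4. The plot of likeness sets 4 members beside their nearest genes.

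**Figure D4:**
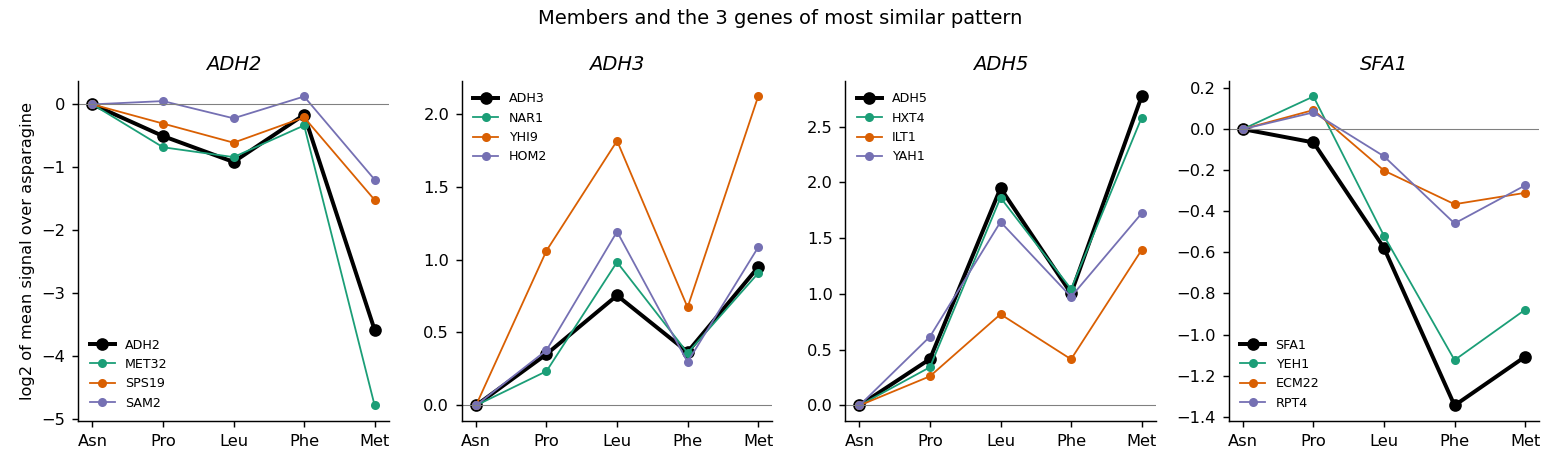
Log2 of the mean signal of 3 arrays over that with asparagine (y axis) by nitrogen source for ADH2, ADH3, ADH5 and SFA1 (black) and the 3 genes most correlated with each (colours). With methionine ADH2, MET32, SPS19 and SAM2 are all at their lowest and ADH5, HXT4, ILT1 and YAH1 at their highest. The genes were picked by correlation over the same arrays, so this follows largely from the choice. Each panel has its own y scale.

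Genes of the surrounding pathways were then read from 7 lists. Over all tested probe sets, the F test called 52.2%. Against asparagine, 9.88% rose and 11% fell with leucine, and 7.56% and 18.1% with phenylalanine. The shares were 14.4% and 24.2% with methionine and 4.6% and 8.7% with proline, and they apply to every list below. Of 12 genes of the earlier and side steps of the Ehrlich pathway, 9 differed among the sources by the F test, against the background of 52.2%. Against asparagine 5 rose and 2 fell with methionine and with phenylalanine, and 4 rose and 2 fell with leucine. The keto acid decarboxylase ARO10 rose from 60.9 ± 10.6 to 1996 ± 202 with phenylalanine, 1046 ± 168 with leucine and 896 ± 71.2 with methionine. The aromatic aminotransferase ARO9 rose to 1837 ± 192, 1139 ± 142 and 818 ± 37.1 from 316 ± 25.6, and the branched-chain aminotransferase BAT2 to 1086 ± 79.2, 1330 ± 95.5 and 1516 ± 42.5 from 245 ± 44.6. ARO10 and ARO9 were thus highest with phenylalanine, where ADH5 was lowest of the 3 sources, whereas BAT2 had the order of ADH5.

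Aldehyde dehydrogenases oxidise the same aldehydes that alcohol dehydrogenases reduce, and acetyl-CoA synthetases take up the acetate that results. Of 7 genes, 6 differed by the F test, and 5 fell and 0 rose with methionine (median log2 difference -0.78, against -0.09 for all tested probe sets). With leucine 4 fell and 1 rose, and with phenylalanine 4 fell and 0 rose. The acetyl-CoA synthetase ACS1 fell from 2201 ± 81.6 with asparagine to 755 ± 93.7 with methionine and 1140 ± 150 with leucine. With phenylalanine it was 1714 ± 167, so these 3 sources stood in the order they had for ADH2, while proline (2015 ± 207) was above phenylalanine, which it was not for ADH2. The cytosolic ALD6 was lowest with phenylalanine (362 ± 64.1, from 1046 ± 30.9), and ALD2, a stress-induced cytosolic isozyme, was lowest with leucine (19.2 ± 3.04, from 55.5 ± 9.11).

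Of 10 regulators and co-targets of ethanol use, 8 differed by the F test, with 2 up and 5 down with methionine, 1 up and 6 down with leucine, and 2 up and 5 down with phenylalanine. The acetate transporter ADY2 ran from 919 ± 119 with asparagine to 40.3 ± 5.73 with methionine, 97.6 ± 26.5 with leucine and 385 ± 123 with phenylalanine. ADH2 had the same order of these 4 sources, with its largest fall also with methionine. The gluconeogenic phosphatase FBP1 fell to similar levels with all 3 (from 328 ± 3.91 to 56.2 ± 7.24, 78.7 ± 16.4 and 76.5 ± 7.93 with leucine, phenylalanine and methionine). The glyoxylate enzyme ICL1 went another way and rose with methionine (from 675 ± 44.9 to 1031 ± 34.8, adjusted p = 0.0010) while it fell with leucine (to 255 ± 28.5). The activator ADR1 itself missed the F test (adjusted p = 0.68).

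Of 11 tested genes for other alcohol, diol and aldehyde reductases, 8 differed by the F test. Against asparagine 2 rose and 4 fell with methionine, 2 rose and 5 fell with phenylalanine, and 1 rose and 6 fell with leucine. The methylglyoxal reductase GRE2 fell from 212 ± 19.2 with asparagine to 17.6 ± 3.76 with methionine, and the glycerol-3-phosphate dehydrogenase GPD1 from 997 ± 79.8 to 400 ± 59.6. YPR1, an aldo-keto reductase, fell from 224 ± 10.99 to 115 ± 5.32. BDH1, the butanediol dehydrogenase, was named after its values were seen: it rose with all 4 other sources and most with methionine (2.05-fold, adjusted p = 6.7e-06).

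All 3 tested aryl-alcohol dehydrogenase genes of the AAD group differed by the F test, of 7 listed. AAD4 fell with all 4 sources (from 435 ± 71.5 to between 236 and 291), AAD10 with phenylalanine and methionine, and AAD14 rose with leucine (from 179 ± 8.03 to 306 ± 24.0) and phenylalanine (to 236 ± 14.7). These genes are near copies of each other, so their signals are uncertain. Of 8 genes of formaldehyde and glutathione-linked detoxification, the setting of SFA1, 5 differed by the F test, against 52.2% of all tested probe sets. The formate dehydrogenase FDH1 was highest with asparagine (1685 ± 157) and proline (1306 ± 97.1), as SFA1 was, and fell to 56.1 ± 3.86 with leucine, 179 ± 92.0 with phenylalanine and 410 ± 98.2 with methionine. FDH1 has a near-identical copy, so its probe set may read both. YJL068C, the esterase that follows Sfa1 in formaldehyde breakdown, missed the F test (adjusted p = 0.059). GSH1, of glutathione synthesis, fell with methionine (from 84.8 ± 9.10 to 36.0 ± 1.62), and GSH2, the next enzyme, rose with leucine (from 170 ± 16.4 to 263 ± 23.6).

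Zinc-regulated genes were read beside ADH4. Of 13 tested, 9 differed by the F test, against 52.2% of all tested probe sets. Against asparagine 0 rose with any source, while 6 fell with phenylalanine, 5 with methionine, 4 with leucine and 2 with proline. Of all tested probe sets, 18.1%, 24.2%, 11% and 8.7% fell in these 4 comparisons, in that order. The zinc transporter ZRT1, the gene next to ADH4 on its chromosome, fell from 342 ± 160 to 91.6 ± 28.0 with phenylalanine (adjusted p = 0.00057). ADH4 rose with that source (adjusted p = 0.048), a call lost in 14 of 27 alternatives. ZPS1, a wall protein of zinc-poor cells, fell from 393 ± 5.09 to 119 ± 53.6, and the membrane protein IZH1 from 586 ± 29.7 to 286 ± 49.0. The activator of this group, ZAP1, missed the F test (adjusted p = 0.16). UBP15, next to ADH2, was lower by 2.24-fold with leucine, 2.12-fold with phenylalanine and 1.98-fold with methionine (adjusted p = 0.00062, 0.0014 and 0.0016), whereas ADH2 with phenylalanine missed the threshold. The other neighbour of ADH2, YME2, missed the F test (adjusted p = 0.42). MRPS9, next to ADH5, was 1.65-fold higher with leucine (adjusted p = 0.0016) and 1.39-fold higher with methionine (0.016), while ADH5 was higher with methionine than with leucine. UGX2, next to SFA1, was lower with leucine (1.66-fold, adjusted p = 0.00069) and methionine (1.51-fold, 0.0023), as SFA1 was. With phenylalanine UGX2 missed the threshold (0.34), unlike SFA1. The other neighbour of SFA1, NRP1, missed the F test (adjusted p = 0.092).

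**Figure D5:**
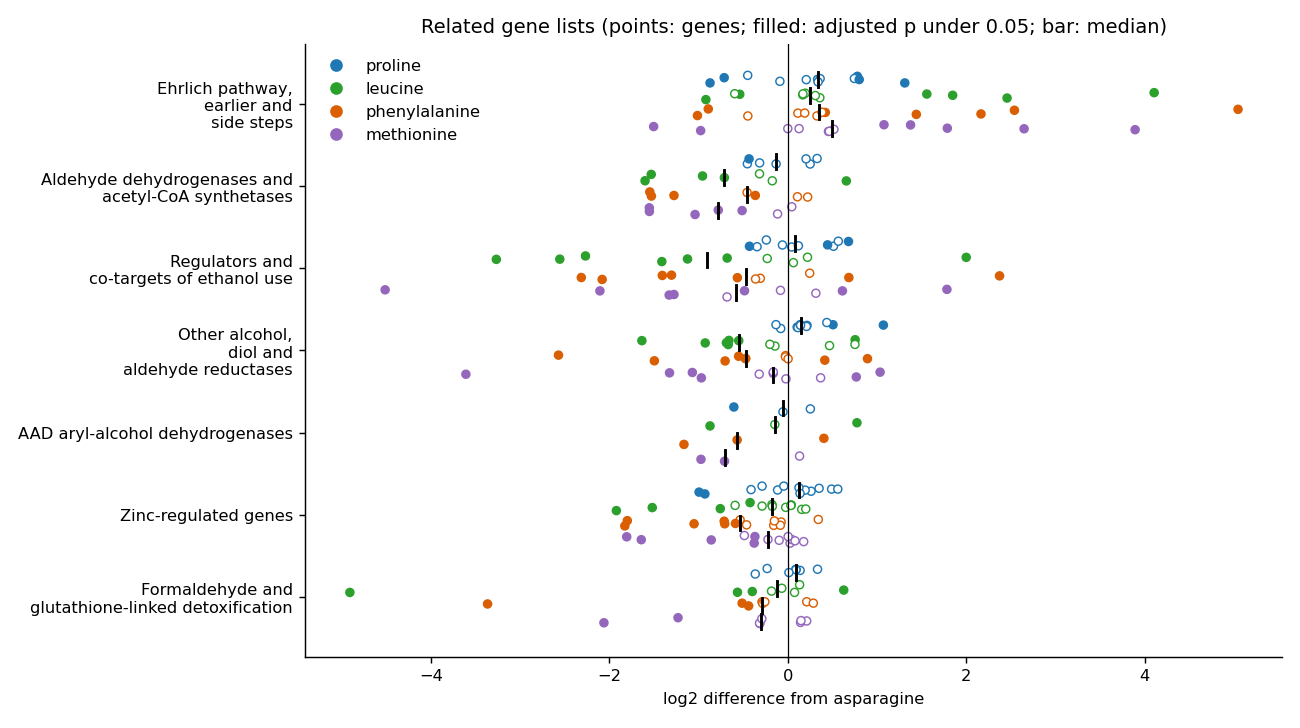
Difference in log2 signal from asparagine (x axis) for the tested genes of 7 related lists (rows), coloured by the other 4 sources. Points are genes, filled where the adjusted p is under 0.05, and black bars are medians; ARO10 lies farthest right (5.04 with phenylalanine) and FDH1 farthest left (-4.91 with leucine).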

How the data were processed

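Single-colour Affymetrix YG_S98 arrays (chip type per the file header of 1 array) were analysed, 3 for each of 5 groups taken from the sample titles. The authors deposited a linear signal intensity for each probe set, computed with MAS5 according to the submitters' processing notes. Its version and target were not stated in what was read here. Of 9335 probe sets 60 controls were removed. By the platform annotation 6504 name 1 gene, 328 several and 2443 none. Signals under 2.0, the 10th percentile, were set to that floor before log2 was taken. A probe set was tested if at least 3 arrays had it over their own 25th percentile.

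Group means were fitted with lmFit, contrasts.fit and eBayes with trend (limma 3.58.1, R 4.3.3), giving a moderated F test, 10 pairwise contrasts and 1 contrast of 3 sources with 2, all 2-sided. The fit was tested on simulated data. Members and lists were chosen with earlier results of these data known. The text names all members, the 3 genes most correlated with each tested member and the 3 genes of smallest F test p of each list. Genes outside that rule (BDH1, ADR1, ZAP1, YJL068C and neighbours of members) were chosen after their values were seen. Alternatives changed the normalization (quantile, median), floor, filter, variance trend, array weights, a replicate block and quality covariates, or left out arrays. No sequences are printed, since no sequence tables were used here.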

Additional observations from a re-analysis of the deposited data

How the results depend on the processing

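Over 27 alternatives, no called difference of a member changed direction. Of 33 pairwise calls 16 held in all of them, and 7 were lost in more than 5. The number of members called by the F test was 5 to 7 when 1 array was left out and 5 to 7 in the other alternatives, against 7. The number of pairwise calls was 26 to 38 when 1 array was left out. It was 20 without the 5 arrays of highest ribosomal RNA control signal, which leaves 1 proline array assumed to vary like the others, and 28 to 40 in the rest. Over all probe sets the F test then called 1908 of 7303, against 3897 of 7459. The number called for 3 sources against 2 was 4 to 5 throughout. With the replicate number as a block there were 32 pairwise calls, 7 F test calls and 5 of the contrast. Deviations of same-numbered arrays had correlations from -0.25 to 0.40 (median 0.015, 30 pairs). Those of differently numbered arrays ran from -0.42 to 0.42 (median 0.0015, 60 pairs). Of the 15 arrays, 11 correlated more with arrays of their own number, and the rest did not. The ranges overlap widely, so whether the numbers mark a pairing cannot be told from these values. With quantile normalization the F test calls of the 7 lists moved from 9 to 11, 8 to 9 and 9 to 8 in the Ehrlich, reductase and zinc lists and not in the other 4. Leaving out phenylalanine arrays 1 and 3, an alternative chosen after seeing the data, gave 39 pairwise calls and 6 F test calls, and leaves 1 phenylalanine array assumed to vary like the others. Among the members only ADH4 had another probe set, and it did not pass the filter of the main fit. With no filter on dim probe sets its F test gave an adjusted p of 0.0045, at signals close to background.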
